A study of Mus musculus with 21 samples.

Results

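The 9 genes described here handle adenine, the other purine bases and urate. They were listed by name as Aprt, Hprt, Adk, Ada, Pnp, Gda, Xdh, Slc2a9 and Abcg2, a rule that uses no measured value, although the list was drawn up with earlier results of these kidneys known. Each was found by symbol in the deposited gene name column and linked by its Ensembl identifier to count tables that hold 21657 genes. Of the 9 genes, 8 were linked. Pnp carried no identifier in that column and has no value here.

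Kidney RNA was sequenced from female apoE knockout (apoEKO) mice on a C57BL/6J background that were 18 weeks old after 14 weeks of diet, which began at 4 weeks. The Con group (n = 5) was fed chow, the Ade group (n = 6) chow with 0.2% adenine, and the Ade + IMC group (n = 6) chow with 0.2% adenine and 0.06% iodomethylcholine (IMC), which blocks the bacterial lyase that makes trimethylamine in the gut. Every mouse carried the knockout, controls included, so each difference between the groups was measured in hyperlipidemic females of 1 strain. Apoe still had reads in each library (47 to 110 in Con, 89 to 214 in Ade and 86 to 171 in Ade + IMC kidneys), and since all groups carry the knockout it checks no label between them. The 4 Con + IMC mice were not analysed here.

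Purines are salvaged by phosphoribosyltransferases, which join a free base to a ribose phosphate and so keep it in the nucleotide pool. Aprt acts on adenine and Hprt on hypoxanthine and guanine, while Adk phosphorylates adenosine to AMP. In the opposite direction Ada turns adenosine into inosine, Pnp splits inosine and guanosine to their bases, Gda turns guanine into xanthine, and Xdh oxidises hypoxanthine and xanthine to urate. Xdh also oxidises adenine that Aprt has not salvaged to dihydroxyadenine, a poorly soluble product that crystallises in kidney tubules, which is the basis of adenine feeding as a model of chronic kidney disease. Slc2a9 (GLUT9) carries urate across the membranes of the nephron epithelium, and Abcg2 is an ATP-driven exporter of urate and many drugs at the brush border of the proximal tubule.

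The comparison of the Ade and Con groups asks how these genes differed in adenine-induced kidney disease, and that of the Ade + IMC and Ade groups whether they differed when trimethylamine production was inhibited. Adenine-fed kidneys carried more RNA of Gda, Ada and Xdh, and less RNA of Adk and of both urate transporters. Gda was 3.79-fold higher, Ada 2.08-fold higher and Xdh 1.71-fold higher in Ade than in Con kidneys, and Adk was 2.47-fold, Abcg2 2.52-fold and Slc2a9 1.74-fold lower. Hprt was 1.19-fold higher. Aprt, the enzyme that salvages adenine itself, did not pass the test. Between the Ade + IMC and Ade groups, 0 of the 8 genes passed, as did 0% of all genes tested.

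The libraries held 7716126 to 11680809 counts in the Con group, 5444833 to 7673215 in the Ade group and 5728589 to 8305968 in the Ade + IMC group. All 12 listed markers of the proximal tubule, the main epithelium of the kidney cortex, had reads in each group. Mouse 407 of the Ade group and mouse 412 of the Ade + IMC group had the highest summed proximal tubule markers of their groups, and mouse 311 of the Ade + IMC group had the lowest, together with the highest T cell and B cell markers. Where leaving out 1 of these 3 mice changed a call or moved a value for a member by over 1.5 times, the value without it, or the range with each mouse left out, is given.

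Levels are given as CPM, the reads of a gene scaled to the size of its library, with TMM factors over all 17 libraries. To set genes beside each other, CPM was divided by the exonic length in kilobases. On this per-length scale the order in the Con group was Hprt at 55.3 ± 4.49 (SD, n = 5), Abcg2 at 53.0 ± 6.26, Aprt at 24 ± 4.17, Adk at 17.6 ± 1.27, Xdh at 6.74 ± 0.51, Slc2a9 at 6.51 ± 1.19, Gda at 1.85 ± 0.60 and Ada at 1.26 ± 0.57 CPM per kb. The ranges of the neighbours Hprt and Abcg2, Xdh and Slc2a9, and Gda and Ada overlapped over the mice, and the other neighbours did not. In the Ade group the order on the same scale was Hprt at 64.5 ± 6.04 (SD, n = 6), Aprt at 27.7 ± 4.25, Abcg2 at 20.8 ± 5.88, Xdh at 11.3 ± 1.78, Adk at 7.03 ± 1.35, Gda at 6.92 ± 0.85, Slc2a9 at 3.68 ± 0.95 and Ada at 2.59 ± 0.70 CPM per kb. Abcg2 thus stood level with Hprt in Con kidneys and well below it in Ade kidneys, where its range met that of Aprt. The Ade + IMC group had the same order, from Hprt at 62.1 ± 4.21 to Ada at 2.58 ± 1.81 CPM per kb.

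Since Adk, Slc2a9 and Abcg2 fell together while Ada and Gda rose, the 250 bases before an annotated start of each are shown, read 5′ to 3′ from RefSeq (GRCm38.p6). Capitals mark a CCAAT box (CCAAT), a GC box (GGGCGG) or an AP-1 site (TGANTCA) on either strand, and no match to a TATA box (TATAAA), an E-box (CACGTG) or an HNF4A core (CAAAGTCCA) was found in these windows. Xdh, which also rose, had no entry. Adk has 2 and Abcg2 3 annotated starts, of which 1 each is shown, and counts per gene cannot tell which start was used.
Ada, chr2:163750240-163750489, minus strand: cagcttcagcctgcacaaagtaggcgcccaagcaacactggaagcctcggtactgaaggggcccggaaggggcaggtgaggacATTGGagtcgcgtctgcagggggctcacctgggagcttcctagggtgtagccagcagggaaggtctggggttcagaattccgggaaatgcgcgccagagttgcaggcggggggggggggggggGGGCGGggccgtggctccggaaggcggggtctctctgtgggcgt
Gda, chr19:21472662-21472911, minus strand: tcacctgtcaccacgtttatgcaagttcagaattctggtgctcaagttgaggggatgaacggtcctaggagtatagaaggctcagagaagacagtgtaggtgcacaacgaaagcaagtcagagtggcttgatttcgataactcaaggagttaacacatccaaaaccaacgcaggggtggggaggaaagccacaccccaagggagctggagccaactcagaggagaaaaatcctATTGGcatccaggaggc
Adk, chr14:21052324-21052573, plus strand: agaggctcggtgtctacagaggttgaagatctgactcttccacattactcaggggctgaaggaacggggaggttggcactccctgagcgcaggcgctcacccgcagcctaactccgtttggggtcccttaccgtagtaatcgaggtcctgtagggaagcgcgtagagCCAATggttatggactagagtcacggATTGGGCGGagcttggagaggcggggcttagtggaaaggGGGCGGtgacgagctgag
Slc2a9, chr5:38483386-38483635, minus strand: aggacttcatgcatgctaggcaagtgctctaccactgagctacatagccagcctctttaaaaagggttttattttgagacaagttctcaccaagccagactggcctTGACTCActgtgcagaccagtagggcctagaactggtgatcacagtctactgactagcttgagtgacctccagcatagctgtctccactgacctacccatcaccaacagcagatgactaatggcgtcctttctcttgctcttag
Abcg2, chr6:58596422-58596671, plus strand: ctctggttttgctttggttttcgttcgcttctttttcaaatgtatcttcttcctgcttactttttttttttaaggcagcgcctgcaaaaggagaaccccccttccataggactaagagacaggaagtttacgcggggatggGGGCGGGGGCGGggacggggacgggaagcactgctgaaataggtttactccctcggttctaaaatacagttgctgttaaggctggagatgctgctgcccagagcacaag
The Ada window held a CCAAT box and a GC box, and its G + C content was 67.2%. The Gda window held a single CCAAT box 17 bases before the start and was 50% G + C. A pair of CCAAT boxes and a pair of GC boxes stood in the Adk window, with 1 of each overlapping. The Slc2a9 window held an AP-1 site 144 bases before the start and was 48.8% G + C. That start lies inside the annotated span of this minus-strand gene, which reaches chr5:38503143. A window at the upstream end of Slc2a9 is therefore not shown. The Abcg2 window held 2 adjoining GC boxes. Of the windows not shown, the other of Adk held 1 CCAAT box and 3 GC boxes (75.2% G + C), and the others of Abcg2 held no motif searched (51.2% G + C) and 4 GC boxes (67.6% G + C). The Aprt window held an AP-1 site and 3 GC boxes, and that of Hprt 2 GC boxes. Of 32851 promoter windows of this length, 33.8% held a CCAAT box, 32.7% a GC box and 6.75% an AP-1 site, and for the letters not found the shares were 12.4% for the TATA box, 6.02% for the E-box and 0.384% for the HNF4A core. A match here describes the window only.

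Aprt (chr8:122574635-122576909, GRCm38, minus strand, ENSMUSG00000006589) was at 32.4, 39.1, 39.5, 33.3 and 49.3 CPM in the 5 Con mice. Its lowest, median and highest values were 37.1, 42.9 and 57.3 CPM in the Ade mice and 33.9, 41.2 and 45.0 CPM in the Ade + IMC mice. The 3 groups overlapped over most of their range, and 1 of 6 Ade mice was above all Con mice. The log2 fold change in Ade against Con was 0.23 ± 0.13 (SE), with an adjusted p = 0.135 by edgeR's quasi-likelihood test, and a fold of 0.98 to 1.41 within 2 SE. The test was passed without the highest Con mouse, 403 (log2 fold change 0.33, adjusted p = 0.0312), and without mouse 407 (0.27, adjusted p = 0.0777). The scaling mattered as well, with 0.30 (adjusted p = 0.0842) under upper-quartile scaling and 0.53 (adjusted p = 0.00566) under library totals, which moved the median of all genes to 0.32.

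Hprt (chrX:52988137-53021659, plus strand, ENSMUSG00000025630), the salvage enzyme of hypoxanthine and guanine, was at 65.5, 77.0, 67.0, 69.0 and 78.0 CPM in the Con mice. The lowest, median and highest Ade mice were at 74.3, 82.8 and 94.9 CPM, and those of the Ade + IMC group at 70.9, 80.5 and 85.4 CPM. Among the Ade mice, 4 of 6 were above every Con mouse, and the lower 2 lay inside the Con range. The difference was small, with a log2 fold change of 0.25 ± 0.09 (SE) and an adjusted p = 0.0236.

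Adk (chr14:21052574-21448569, plus strand, ENSMUSG00000039197), adenosine kinase, was the most even of the 8 genes in the Con group, with a coefficient of variation of 7.19%, at 152, 135, 146, 156 and 163 CPM. In the Ade group it was at 45.9 CPM in the lowest mouse, 60.9 at the median and 77.8 in the highest, and in the Ade + IMC group at 55.5, 66.8 and 90.6 CPM. No adenine-fed mouse reached the lowest Con mouse. Against Con, the Ade group had a log2 fold change of -1.31 ± 0.12 (SE), with an adjusted p = 9.97e-07. The highest Ade value was that of mouse 407, without which the log2 fold change was -1.41.

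Ada (chr2:163726584-163750239, minus strand, ENSMUSG00000017697), which removes the amino group of adenosine, was the least abundant member, with 14 to 34 reads per Con library, so counting error weighs on its values. It was at 1.51, 2.45, 1.90, 2.34 and 4.44 CPM in the Con mice. The Ade mice lay between 3.81 and 7.69 CPM (median 5.07) and the Ade + IMC mice between 2.63 and 11.9 CPM (median 3.55). The highest Con mouse, 403, lay inside the Ade range, and 4 of 6 Ade mice were above it. The log2 fold change in Ade against Con was 1.06 ± 0.28 (SE), with an adjusted p = 0.00489. The 11.9 CPM of the Ade + IMC group belonged to mouse 311, and the next highest mouse of that group was at 6.70 CPM.

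Gda (chr19:21391307-21473445, minus strand, ENSMUSG00000058624), guanine deaminase, had the largest change of the 8 genes. Its level was 12.6, 6.64, 11.6, 16.9 and 9.80 CPM in the Con mice. The Ade mice ranged from 36.0 to 51.9 CPM (median 42.7), and the Ade + IMC mice from 25.2 to 45.2 CPM (median 34.4). All 12 adenine-fed mice were above all Con mice. The log2 fold change in Ade against Con was 1.92 ± 0.18 (SE), with an adjusted p = 1.12e-06.

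Pnp, which joins the adenosine and guanosine branches, has no value. At its locus the tables hold Gm49342 (ENSMUSG00000021871), named here after its values were seen, whose 750 exonic bases all lie within exons of other genes on the same strand, mostly Pnp. Of its 50-base windows 95.4% also occur in another gene, so its reads cannot be assigned to it or to Pnp. Gm49342 had 303 to 464 reads in the Con mice and 341 to 518 in the Ade mice, with a log2 fold change of 0.21 ± 0.08 (SE) and an adjusted p = 0.0387. Pnp2, a paralog beside Pnp, had 0 to 6 reads over the 17 libraries and did not enter the tests.

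Xdh (chr17:73883895-73950196, minus strand, ENSMUSG00000024066), the enzyme that makes urate and dihydroxyadenine, was at 55.3, 59.3, 61.8, 65.9 and 66.8 CPM in the Con mice. The lowest, median and highest Ade mice were at 79.4, 102 and 127 CPM, and the Ade + IMC mice at 67.6, 91.0 and 113 CPM. Every adenine-fed mouse was above every Con mouse, although mouse 412 of the Ade + IMC group exceeded the highest Con mouse by a narrow margin. Xdh had a log2 fold change of 0.77 ± 0.11 (SE) in Ade against Con, with an adjusted p = 5.53e-05. Of the 50-base windows of its transcripts, 9.60% also occur in other genes, so a part of its reads may not have been assigned uniquely. Adipocyte markers (4 of 5 listed were measured, 0 of them without reads in a group) reached a sum of 12.6 CPM at most in Con, 143 in Ade and 557 in Ade + IMC kidneys, from a lowest sum of 0.41 in each group. Mouse 207 in the Ade group and mouse 212 in the Ade + IMC group were highest in both these markers and Xdh. Without mouse 207 the log2 fold change in Ade against Con was 0.71, and without mouse 212 that of Ade + IMC against Con was 0.48. The part of fat tissue in the Xdh values was not tested.

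Slc2a9 (chr5:38349273-38503143, minus strand, ENSMUSG00000005107), the facilitated urate transporter, was at 29.2, 29.0, 28.2, 38.1 and 41.2 CPM in the Con mice. Ade mice ranged from 14.1 to 27.3 CPM (median 17.4) and Ade + IMC mice from 16.1 to 26.7 CPM (median 20.1). All 12 adenine-fed mice were below all Con mice, with mouse 407 closest to the Con range. The log2 fold change in Ade against Con was -0.80 ± 0.17 (SE), with an adjusted p = 0.000878, and -0.95 without mouse 407.

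Abcg2 (chr6:58584523-58695676, plus strand, ENSMUSG00000029802), the urate exporter, had the highest CPM of the 8 genes in each group. The Con mice were at 453, 368, 388, 481 and 472 CPM. In the Ade group the lowest, median and highest values were 120.0, 158 and 258 CPM, and in the Ade + IMC group 132, 185 and 237 CPM. The highest adenine-fed mouse, again 407, was below the lowest Con mouse. The log2 fold change in Ade against Con was -1.33 ± 0.16 (SE), with an adjusted p = 1.45e-05, and -1.50 without mouse 407.

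**Figure D1:**
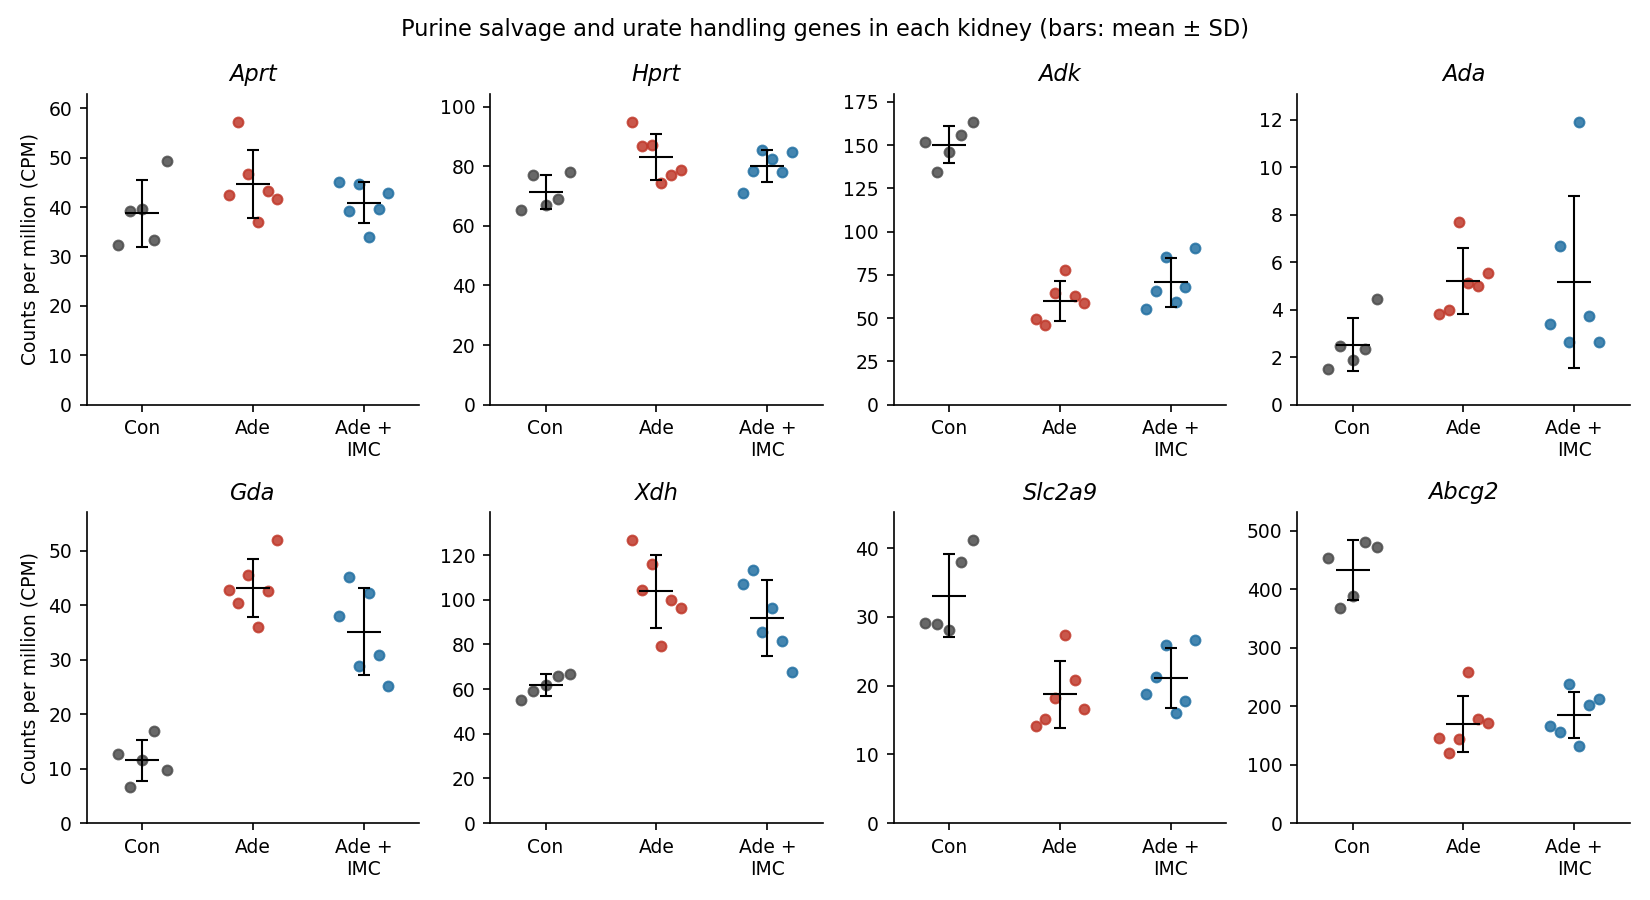
CPM of 8 purine salvage and urate handling genes (vertical axes, each from 0) in the 5 Con, 6 Ade and 6 Ade + IMC mice, with 1 point per mouse and a bar for the mean ± SD. Gda and Xdh are higher and Adk, Slc2a9 and Abcg2 lower in every adenine-fed mouse than in any Con mouse, while the groups overlap for Aprt, Hprt and Ada.

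Of the 8 genes, 7 passed the test between the Ade and Con groups (adjusted p below 0.1), 4 of them higher (Hprt, Ada, Gda and Xdh) and 3 lower (Adk, Slc2a9 and Abcg2). Of all 14612 genes tested 67.3% passed, 35.1% as higher and 32.2% as lower, so a count of 7 of 8 does not set these genes apart. Their median log2 fold change was 0.24, beside 0.02 over all genes. The CPM ranges of the groups did not overlap for 5 of the 8 genes, as against 43% of all genes tested. All 7 calls were kept under DESeq2, under each scaling tried and without any 1 mouse. In kidney RNA, fewer cells of a type and less RNA per cell cannot be told apart, and this holds for every gene named here.

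The comparison of the Ade + IMC and Con groups shares its Con mice with the one above. Here 6 of 8 genes passed, as did 63.2% of the 14578 genes tested (30.9% higher and 32.3% lower). Gda was higher with a log2 fold change of 1.58 ± 0.22 (SE, adjusted p = 5.43e-05), Xdh with 0.55 ± 0.13 (adjusted p = 0.00229) and Ada with 1.04 ± 0.44 (adjusted p = 0.0584). Adk was lower with -1.12 ± 0.12 (adjusted p = 6.54e-06), Slc2a9 with -0.68 ± 0.15 (adjusted p = 0.00169) and Abcg2 with -1.26 ± 0.14 (adjusted p = 9.22e-06). The genes whose ranges did not overlap were Gda, Xdh, Adk, Slc2a9 and Abcg2, or 5 of 8 beside 37% of all genes. Aprt had a log2 fold change of 0.05 ± 0.11 (adjusted p = 0.726; 0.10 without mouse 311 and 0.08 without mouse 412) and Hprt one of 0.14 ± 0.07 (adjusted p = 0.122).

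The Ada call in this comparison rested on single mice. Without mouse 311 its log2 fold change was 0.59 (adjusted p = 0.150), and it was also lost without mouse 201 (0.88, adjusted p = 0.136), mouse 301 (0.95, adjusted p = 0.117), mouse 302 (1.01, adjusted p = 0.106) or mouse 212 (0.96, adjusted p = 0.101). Hprt, by contrast, passed without mouse 202, 403, 211 or 412, with log2 fold changes of 0.17, 0.17, 0.18 and 0.17 and adjusted p-values of 0.0974, 0.0775, 0.0643 and 0.0897. It also passed under 3 other scalings and in a fit of all 17 mice.

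Between the Ade + IMC and Ade groups, 0 of 8 genes passed by limma on log2(normalized count + 1), as did 0% of the 14696 genes tested. At an unadjusted p below 0.05 there were 988 genes, or 6.72% (3.37% higher and 3.35% lower), and 1 of the 8. That gene was Gda, at a normalized count of 260 ± 61.0 (SD, n = 6) in the Ade + IMC group and 322 ± 40.1 in the Ade group. By limma its log2 fold change was -0.33 ± 0.15 (SE), with an unadjusted p = 0.0382 and an adjusted p = 0.717. Of the 6 Ade + IMC mice, 3 were below all Ade mice in Gda.

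The other differences between the Ade + IMC and Ade groups had intervals of 2 SE that all included no change. Adk differed by a log2 fold change of 0.23 (fold 0.96 to 1.43), Slc2a9 by 0.17 (0.89 to 1.42) and Abcg2 by 0.13 (0.86 to 1.39). Xdh differed by -0.19 (fold 0.72 to 1.06), Aprt by -0.14 (0.79 to 1.05) and Hprt by -0.06 (0.86 to 1.06). For Ada the difference was -0.21 with a wide interval (fold 0.54 to 1.39). These differences moved with single mice, and with each of the 12 mice left out in turn none of the 8 genes passed the adjusted test. Ada then ran from -0.50 (without mouse 311) to -0.07 (without mouse 412) and Abcg2 from 0.04 (without mouse 208) to 0.26 (without mouse 407). Slc2a9 ran from 0.10 (without mouse 207) to 0.29 (without mouse 407), and Adk from 0.15 (without mouse 412) to 0.31 (without mouse 407). The ranges were -0.27 to -0.11 for Xdh, without mice 407 and 412, and -0.41 to -0.24 for Gda, without mice 212 and 412. Aprt ran from -0.19 (without mouse 407) to -0.06 (without mouse 208) and Hprt from -0.10 (without mouse 407) to -0.03 (without mouse 207). Missing the threshold does not show that the levels were equal. Of the cell type markers in this comparison 0 passed the adjusted test. By limma, all 5 red cell markers (median log2 fold change 1.56) and 4 of 6 collecting duct markers (median 0.56) had an unadjusted p below 0.05. So did 2 of 7 tubular injury markers (median -0.88) and 2 of 7 of the thick ascending limb and distal tubule (median 0.35). Among proximal tubule markers it was 1 of 11 (median 0.44), and among fibroblast markers 1 of 7 (median 0.09). The part of these cells in the values of the 8 genes was not tested.

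**Figure D2:**
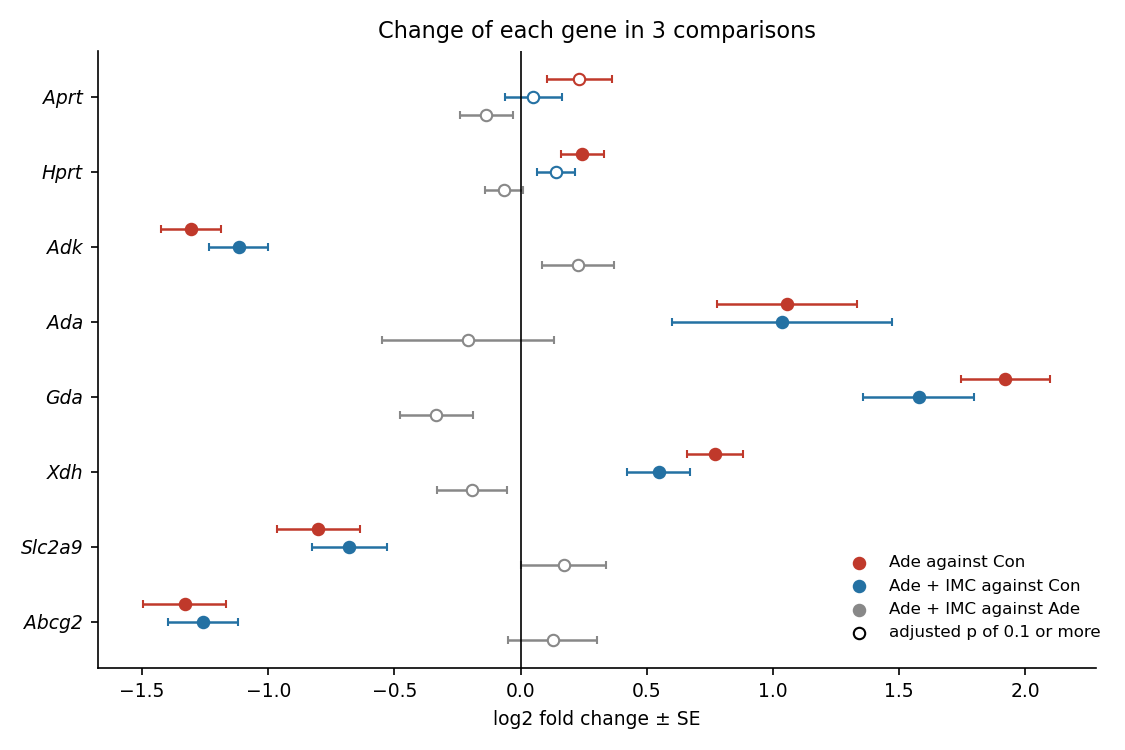
log2 fold change ± SE of each gene (horizontal axis) for Ade against Con, Ade + IMC against Con and Ade + IMC against Ade, with filled points for an adjusted p below 0.1. The first 2 comparisons share the Con mice and run from -1.33 for Abcg2 to 1.92 for Gda, while the third stays between -0.33 and 0.23 with open points only.

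Within single kidneys, the RNAs of enzymes that act on the same substrate were compared as a ratio of CPM per kb. These are ratios of whole-kidney RNA. Enzyme amounts, activity and whether the paired RNAs come from the same cells were not measured. The ratio of Xdh to Aprt, both of which act on adenine, had a median of 0.27 (0.24 to 0.35) over the Con kidneys, 0.41 (0.32 to 0.52) over the Ade kidneys and 0.39 (0.28 to 0.51) over the Ade + IMC kidneys. Those ranges overlapped. Of Xdh to Hprt, which both act on hypoxanthine, the ratio was 0.11 to 0.13 for Con and 0.15 to 0.19 for Ade, with no overlap, and 0.11 to 0.21 for Ade + IMC. Gda to Hprt, which both act on guanine, was at 0.02 to 0.05 for Con, 0.09 to 0.14 for Ade and 0.06 to 0.12 for Ade + IMC, so that both adenine-fed groups lay above Con. The ratio of Ada to Adk, which both act on adenosine, was 0.04 to 0.12 for Con and 0.28 to 0.51 for Ade, with no overlap, and ran from 0.12 to 0.85 under Ade + IMC. The highest of these was mouse 311, without which the Ade + IMC range was 0.12 to 0.44. For the urate transporters, Abcg2 stood at 7.15 to 9.68 times Slc2a9 in Con kidneys, 4.91 to 6.42 times in Ade kidneys and 4.57 to 7.12 times in Ade + IMC kidneys.

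The 3 members that fell were set beside markers of the nephron. Of the 12 listed markers of the proximal tubule 11 were tested, and all 11 were lower in the Ade group than in the Con group. Their summed CPM ran from 19369 to 26143 for Con, from 4034 to 11333 for Ade and from 5221 to 10568 for Ade + IMC, and 0 markers were without reads in any group. Mouse 407, with the highest sum of the Ade group, also had its highest Abcg2, Slc2a9 and Adk. The same mouse had the highest Ade sums of collecting duct and of thick ascending limb and distal tubule markers. In the Ade + IMC group mouse 412 had the highest proximal tubule sum, Slc2a9 and Adk, but Abcg2 was highest in mouse 310. Mouse 311 had the lowest proximal tubule sum, Abcg2 and Slc2a9 of that group, but Adk was lowest in mouse 211. The CPM of Abcg2, which is not on the proximal tubule list, was equal to 1.84 to 2.06% of the proximal tubule marker sum for Con, 2.27 to 3.60% for Ade and 2.0 to 2.53% for Ade + IMC. For Slc2a9 these ratios were 0.12 to 0.18%, 0.24 to 0.38% and 0.20 to 0.31%, and for Adk 0.60 to 0.73%, 0.69 to 1.22% and 0.78 to 1.14%. These ratios depend on the markers summed, which fell by unequal amounts, from 1.55-fold for Fxyd2, 2.24-fold for Slc13a3 and 2.31-fold for Aqp1 to 6.29-fold for Lrp2, beside 2.52-fold for Abcg2, 2.47-fold for Adk and 1.74-fold for Slc2a9. In other parts of the nephron the markers were mostly lower or did not pass. Of 6 collecting duct markers 5 were lower in the Ade group (summed CPM 588 to 775 for Con, 226 to 395 for Ade and 299 to 528 for Ade + IMC), and of 7 markers of the thick ascending limb and distal tubule 5 were lower and 1 higher (8006 to 12167, 3872 to 8110 and 6326 to 10392 CPM). Of 5 podocyte markers 0 were lower, 1 (Synpo) was higher and 4 did not pass. Outside the epithelium, 5 of 8 endothelial markers were lower (785 to 1146 CPM summed for Con, 454 to 942 for Ade and 614 to 1167 for Ade + IMC), as were all 5 red cell markers (186 to 248.9, 15.8 to 104 and 80.8 to 227.5 CPM). The part of tubule cell content in the lower CPM of the 3 genes was not tested.

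**Figure D3:**
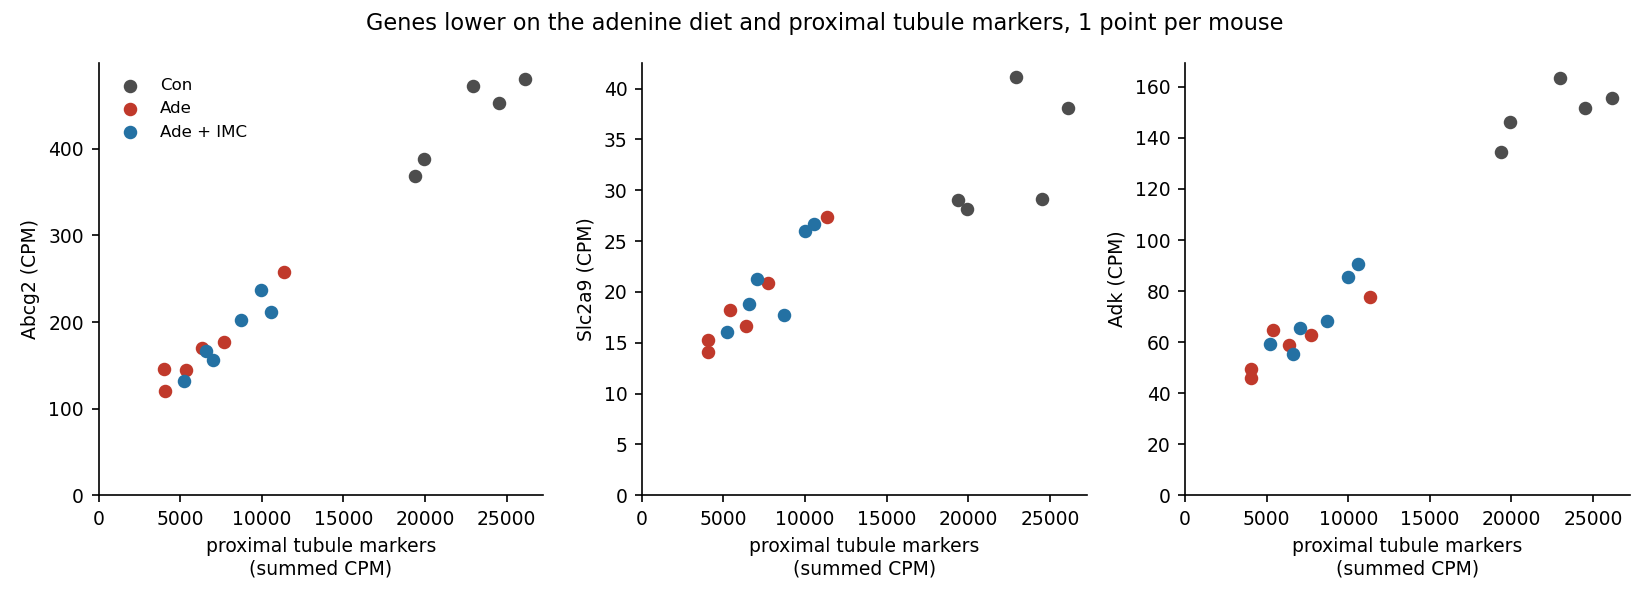
CPM of Abcg2, Slc2a9 and Adk (vertical axes) against the summed CPM of 12 proximal tubule markers (horizontal axes), 1 point per mouse, coloured by group. Con mice lie at 19369 or more of the marker sum and adenine-fed mice at 11333 or less, and mouse 407 is the Ade point farthest to the right.

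The members that rose were set beside markers of leukocytes, fibroblasts and injured tubule. All 8 macrophage markers were higher in the Ade group, with a summed CPM of 212 to 255 for Con, 1425 to 2415 for Ade and 1305 to 2166 for Ade + IMC. In the Ade + IMC group mouse 412 had the lowest macrophage sum and the lowest Gda, and in the Ade group mouse 407 had the lowest of both. The highest macrophage sums were those of mice 208 (Ade) and 311 (Ade + IMC), whereas Gda was highest in mice 409 and 212. All 8 T cell markers were higher too, with sums of 7.31 to 14.5 CPM for Con, 57.3 to 214 for Ade and 61.0 to 309.5 for Ade + IMC. The highest T cell sums were those of mouse 308 in the Ade group and mouse 311 in the Ade + IMC group, which also had the highest Ada of their groups. All 7 tubular injury markers were higher, with sums of 1503 to 1868 CPM for Con, 5445 to 17999 for Ade and 3118 to 11866 for Ade + IMC, and mouse 407 was lowest and mouse 207 highest of the Ade group in both this sum and Xdh. In the Ade + IMC group the extremes differed, with the injury sum lowest in mouse 311 and highest in mouse 310 and Xdh lowest in mouse 412 and highest in mouse 212. All 7 fibroblast markers were higher in the Ade group (333 to 413 CPM summed for Con, 2662 to 3279 for Ade and 2011 to 3040 for Ade + IMC), as were all 6 B cell markers (5.07 to 12.1, 30.3 to 944 and 63.1 to 2689 CPM). None of these lists had a marker without reads in a group. Their part in the changes of Gda, Ada and Xdh was not tested.

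**Figure D4:**
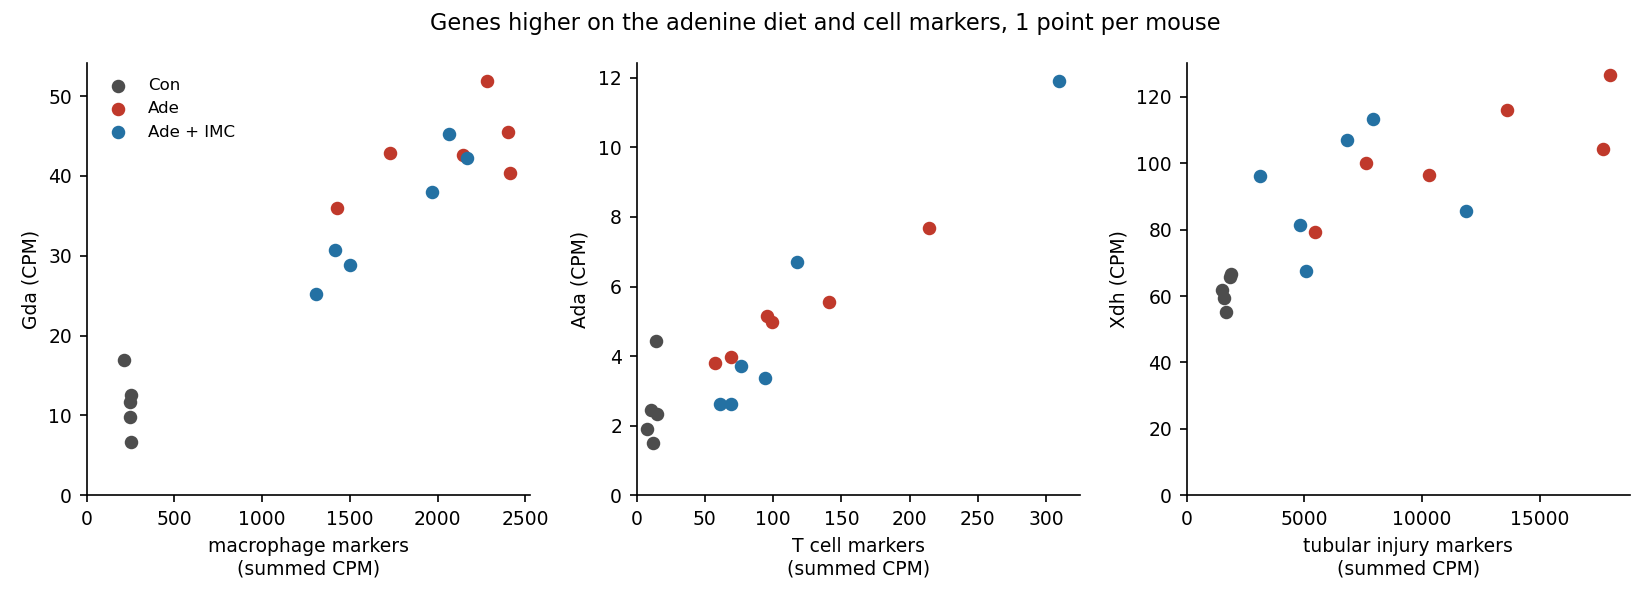
CPM of Gda, Ada and Xdh (vertical axes) against the summed CPM of macrophage, T cell and tubular injury markers (horizontal axes), 1 point per mouse, coloured by group. Mouse 311 is the Ade + IMC point at 11.9 CPM of Ada and 309.5 CPM of T cell markers, and the Con mice sit at the low end of each marker sum.

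The genes whose log2 CPM was most like each member were found by Pearson's r over the 17 mice among 14954 genes. These r values are descriptions, since the mice share 3 diets and a large part of all genes moved with the diet. Abcg2 was most like Hnf4a (r = 0.996), a transcription factor of the proximal tubule and liver, and Slc25a15 (r = 0.994), a mitochondrial ornithine carrier. Adk was most like Tcea3 (r = 0.988) and Papss2 (r = 0.986), and Slc2a9 was most like Dera (r = 0.971) and Dhrs4 (r = 0.969). On the rising side, Gda was closest to Pirb (r = 0.973) and Ptafr (r = 0.972), both receptors of myeloid cells, and Ada to Dgkz (r = 0.939) and Limd2 (r = 0.910). Xdh was most like H2-Q10 (r = 0.944) and Kcnh8 (r = 0.944). For the little changed genes the best matches were weaker, at r = 0.873 for Aprt with Coq8b and 0.859 with Eri3, and r = 0.877 for Hprt with D030056L22Rik and 0.876 with Lmnb2.

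The list of other urate transporters also holds carriers linked to them and the scaffold Pdzk1, which holds several at the brush border. All 15 listed genes were tested and all 15 were lower in the Ade group, with a median log2 fold change of -1.57 beside 0.02 over all genes and a background of 32.2% lower. Slc5a12, a lactate transporter coupled to urate reabsorption, was at 229 to 397 CPM in the Con mice and 21.1 to 60.7 CPM in the Ade mice, with a log2 fold change of -2.87 ± 0.27 (SE, adjusted p = 1.11e-06). Slc22a7 (OAT2) was at 284 to 458 CPM in Con and 7.5 to 178 CPM in Ade kidneys, at -2.48 ± 0.58 (adjusted p = 0.00212). Slc17a2, a phosphate and organic anion transporter, was at -2.14 ± 0.37 (adjusted p = 0.000234). Each of the 4 scalings tried called all 15 lower, and Ade + IMC kidneys also had all 15 lower than Con kidneys, with a median of -1.30. Slc2a9 and Abcg2 changed in the direction of this list, as did the proximal tubule markers given above. Set as a percentage of the summed proximal tubule markers, genes of this list went both ways between Con and Ade. Slc5a12 went from a median of 1.30% in Con to 0.56% in Ade kidneys, and Slc22a7 from 1.73% to 0.95%. Slc22a12 went from 3.09% to 3.95% and Slc22a6 from 2.82% to 4.64%. The part of tubule cell content in these falls was not tested.

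**Figure D5:**
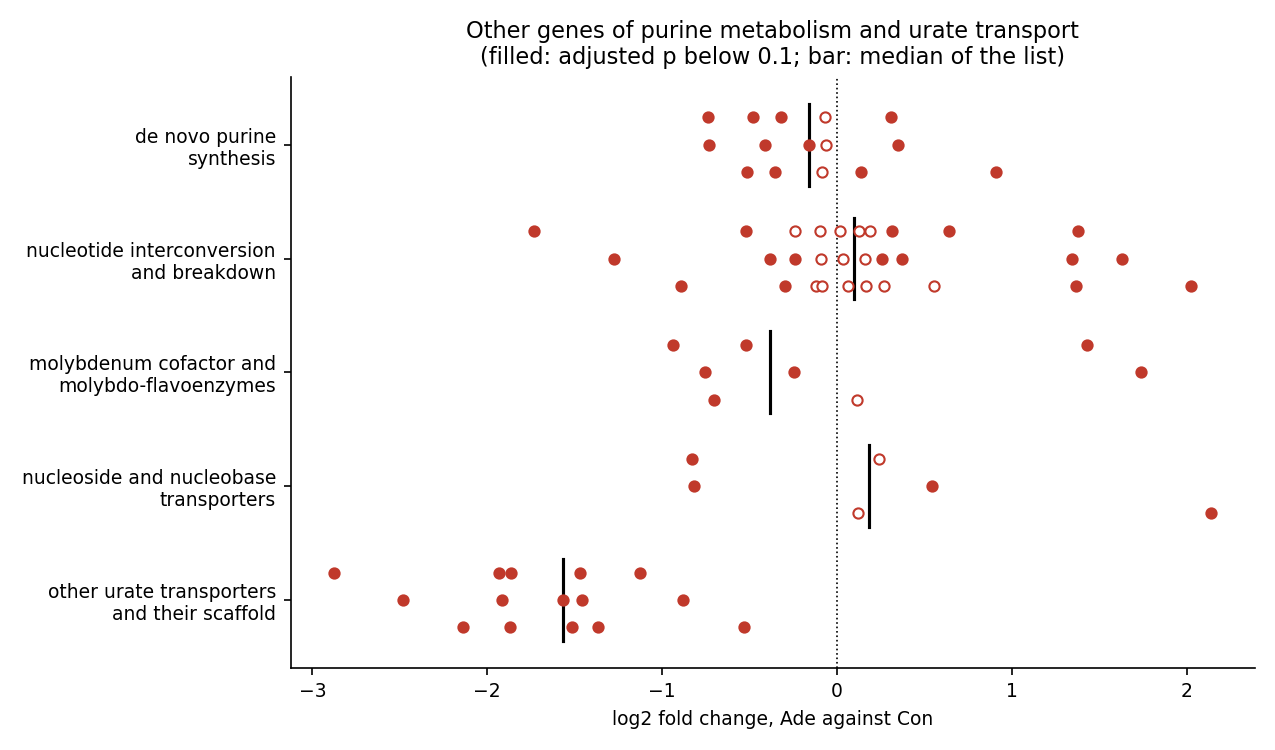
log2 fold change in Ade against Con (horizontal axis) of the tested genes of 5 lists, 1 point per gene, filled where the adjusted p was below 0.1, with a bar at the median of the list. All 15 genes of the list of other urate transporters and their scaffold lie left of 0 around a median of -1.57, while the lists of purine enzymes lie on both sides.

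The enzymes that build purines anew were mixed. Of 15 tested genes of de novo purine synthesis, 4 were higher, 8 lower and 3 did not pass, beside 67.3% of all genes that passed (35.1% higher and 32.2% lower). The median log2 fold change of the list was -0.16. The first committed step fell, with Ppat at 66.9 to 84.0 CPM in the Con mice and 35.1 to 54.5 CPM in the Ade mice (log2 fold change -0.74 ± 0.11 SE, adjusted p = 7.05e-05). Prps2, which makes the ribose donor that Aprt and Hprt also use, was at -0.73 ± 0.13 (adjusted p = 0.000328), and Gmps, the last step to GMP, at -0.52 ± 0.10 (adjusted p = 0.000484). Impdh1, the entry to guanine nucleotides, was at 9.18 to 14.2 CPM in Con and 20 to 25.1 CPM in Ade kidneys, at 0.91 ± 0.12 (adjusted p = 2.86e-05). Impdh2 was at 0.35 ± 0.16 (adjusted p = 0.0784) and Atic at 0.31 ± 0.08 (adjusted p = 0.00507).

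Among 30 tested genes of nucleotide interconversion and breakdown, 9 were higher, 7 lower and 14 did not pass, beside 67.3% of all genes that passed, with a median log2 fold change of 0.09. The largest rises were those of Lacc1 (log2 fold change 2.02 ± 0.19 SE), a purine nucleoside enzyme of macrophages, Samhd1 (1.63 ± 0.15), which splits deoxynucleotides, and Dck (1.38 ± 0.13), which phosphorylates deoxynucleosides. The largest falls were in Ak4 (-1.73 ± 0.33), a mitochondrial adenylate kinase, Ahcy (-1.27 ± 0.21), which releases adenosine from S-adenosylhomocysteine, and Ak3 (-0.89 ± 0.12). Their adjusted p-values were 1.60e-06, 8.61e-07, 1.65e-06, 0.000545, 0.000151 and 2.77e-05 in the order given. Adal, a deaminase related to Ada and named after its values were seen, was lower (-0.52 ± 0.13, adjusted p = 0.00281). The split of this list depended on the scaling, with 19 higher and 3 lower under library totals.

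Xdh needs a molybdenum cofactor, and 5 of the 8 tested genes of that list were lower, 2 higher and 1 did not pass, with a median log2 fold change of -0.38, beside 32.2% of all genes lower and 35.1% higher. Gphn (log2 fold change -0.94 ± 0.11 SE, adjusted p = 1.12e-05) and Mocs2 (-0.76 ± 0.11, adjusted p = 4.25e-05), which assemble the cofactor, and Suox (-0.70 ± 0.12, adjusted p = 0.000249), a sulfite oxidase that carries it, fell. The aldehyde oxidases Aox1 (1.74 ± 0.30, adjusted p = 0.000253) and Aox3 (1.43 ± 0.45, adjusted p = 0.0138), relatives of Xdh, rose. Aox1 was at 1.41 to 3.25 CPM in Con and 4.68 to 11.1 CPM in Ade kidneys, and Aox3 at 0.52 to 5.42 and 4.51 to 9.20 CPM.

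Nucleoside and nucleobase transporters were also mixed, with 2 of 6 tested genes higher, 2 lower and 2 that did not pass, close to the 67.3% of all genes that passed. Slc28a2, a sodium-driven carrier of purine nucleosides, was at 0.58 to 1.83 CPM in the Con mice and 1.82 to 9.36 CPM in the Ade mice (log2 fold change 2.14 ± 0.45 SE, adjusted p = 0.00111). Slc43a3, a carrier of purine bases that include adenine, was at 0.54 ± 0.15 (adjusted p = 0.00765). The lysosomal carrier Slc29a3 (-0.83 ± 0.13, adjusted p = 0.000102) and the pyrimidine carrier Slc28a1 (-0.82 ± 0.16, adjusted p = 0.000543) fell. Of the enzymes that degrade urate, Uox had 0 to 5 reads per library and was not tested, and Urah did not pass (0.28 ± 0.30, adjusted p = 0.438). In none of the 6 lists did a gene pass between the Ade + IMC and Ade groups, where 0% of all genes did.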

How the data were processed

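Kidney RNA-seq libraries (TruSeq, single-end) of 17 mice were grouped by the treatment in the sample labels, with diets from the study's methods. The authors deposited raw counts per Ensembl gene for the Con and Ade mice. A second table holds the Ade and Ade + IMC mice as a signal that the authors made by dividing each count by the library's size factor from DESeq2. The study's methods name STAR and mm10, while the submitters' processing notes list Bowtie2 2.2.5 and HTSeq 0.9.1; the annotation release and use of strand are not given in the sources used here. The deposited columns of the authors' own comparison were not used, apart from gene symbols and identifiers. No 2 libraries of a group agreed within sampling noise (the lowest chi-square statistic over its degrees of freedom was 4.21), and the labels do not say whether mice shared cages, so p-values measure the spread between these mice.

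Dividing each normalized value by that of 1 read gave a whole number for 100% of values (tolerance 0.01 reads), and the recovered reads of the Ade mice differed from their raw counts in 0 of 20634 genes. Ade and Ade + IMC kidneys were each tested against Con by edgeR 4.0.16 (quasi-likelihood, TMM, filterByExpr), the latter on the recovered reads. The Ade + IMC and Ade groups were tested by limma-trend (3.58.1), after log2(normalized count + 1), for genes with a mean of at least 10, so its fold changes understate the change of low genes. Genes passed at a Benjamini-Hochberg adjusted p below 0.1 over all genes tested, in R 4.3.3. The tests were tested on simulated data, where 79 to 89% of genes changed by a log2 fold change of 1 were recovered. In Ade against Con, 6.15% of the genes that passed were false with edgeR and 13.7% with DESeq2. The share was 8.96% with limma in Ade + IMC against Ade, and 10.5% with edgeR in Ade + IMC against Con. Of these shares, those of 13.7% and 10.5% lie above the threshold of 0.1. A total of 3 counts is the limit of detection, for counting error only. That is 0.257 to 0.551 CPM per library by library totals without TMM factors, a scale that differs somewhat from the CPM printed here. Exonic lengths and positions are those of GENCODE M21 (GRCm38), with gene identifiers as deposited.

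The members and lists were chosen with earlier results of these data known. Named from each pathway list were up to 3 genes with the largest rise and 3 with the largest fall among those that passed in Ade against Con, and for each member the 2 genes with the highest Pearson's r. Alternatives were DESeq2 1.42.0, other scalings, filters and pseudocounts, a fit of all mice, a block for the leading digit of each mouse's number, a threshold of 0.05, an unadjusted threshold, each mouse left out, and, chosen after seeing the data, the fit without mice 311, 407 and 412 and the ratios without each of them.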

Additional observations from a re-analysis of the deposited data

How the results depend on the processing

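Of the values of single genes under the alternatives, 478 kept their direction and their side of the threshold, 15 newly passed it, 6 no longer passed and 4 turned in sign. The 4 were near 0. Ada in Ade + IMC against Ade was -0.21 with limma, 0.00184 with DESeq2 and 0.00918 in the edgeR fit of all 17 mice (log2 fold change). Aprt in Ade + IMC against Con lay between -0.0139 and 0.15 when 1 mouse at a time was left out, below 0 without mouse 201 or 302. The count of members that passed stayed at 7 or 8 in Ade against Con and at 5 to 8 in Ade + IMC against Con, and was 0 in Ade + IMC against Ade under every alternative but the unadjusted p below 0.05, which gave 1 member and 5 of 74 genes of the pathway lists (6.76%, beside 6.72% of all genes).

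The first digit of the mouse number, which the labels do not explain, is shared by mice of all groups. As a replicate block it left 7, 0 and 6 members passing in Ade against Con, Ade + IMC against Ade and Ade + IMC against Con, the same counts as without it, while over all genes the Ade + IMC against Ade count went from 0 to 133, or 0.905%. DESeq2 on the recovered reads gave 37 genes (0.174%) and edgeR 0 in that comparison. Library totals without TMM moved the median log2 fold change of all genes from 0.02 to 0.32 in Ade against Con, and the split of passing genes from 5135 higher and 4706 lower to 7990 and 2497, while upper-quartile scaling gave 5617 and 4173. Under totals Aprt passed in both comparisons against Con. Without mice 311, 407 and 412 the counts of members were 8, 0 and 6, and Ada in Ade + IMC against Con was 0.74. Depth limits Ada most, at 14 to 105 reads per library.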

Other observations

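Among the 74 tested other genes of purine metabolism and urate transport, 5 (6.76%) had an unadjusted p below 0.05 by limma between the Ade + IMC and Ade groups, beside 6.72% of all genes tested, so the count does not set these lists apart. The 5 were chosen with their values in view. Slc22a7 (OAT2) was at 66.1 to 268 CPM (median 144) in the Ade + IMC kidneys and 7.5 to 178 CPM (median 55.7) in the Ade kidneys, with a log2 fold change of 1.63 ± 0.66 (SE) and an adjusted p = 0.715. Ak4, the mitochondrial adenylate kinase, was at 106 to 186 CPM and 40.1 to 204 CPM in the same groups, with 0.76 ± 0.33 and an adjusted p = 0.717. Prps1 (0.23 ± 0.08) and Prpsap2 (0.24 ± 0.10), which belong to the enzyme that makes the ribose donor of purine synthesis, were also higher in mean, and Nt5c (-0.20 ± 0.09), a nucleotidase, was lower in mean. The groups overlapped for Slc22a7 and Ak4, and none of the 5 passed the adjusted test.

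Uox, the urate oxidase that liver uses to degrade urate, was at 0 to 0.13 CPM in Con, 0.37 to 0.68 CPM in Ade and 0 to 0.45 CPM in Ade + IMC kidneys. These are 0 to 5 reads per library, near the limit of detection.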
